A study of Caenorhabditis elegans with 2 samples.

Results

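The binding of UNC-130, a forkhead transcription factor, was described here around 7 sarcomere genes of the nematode Caenorhabditis elegans: cpn-1, cpn-2, cpn-3, cpn-4, unc-87, unc-89 and unc-22. They were chosen by a fixed list of names of calponin-like and giant sarcomere proteins, out of 19973 protein-coding genes on the 6 nuclear chromosomes, and all 7 were found in the WBcel235 gene models. Summits of the deposited peak lists were taken within 5000 bp of each gene body, so the summits themselves, their signal and their distance are what the choice rests on, and they are given as descriptions with no test. The lists come from chromatin immunoprecipitation and sequencing (ChIP-seq) of 2 biological replicates of 1 group. These were whole L1 larvae, of mixed sex and unknown age, of strain OP77, with the genotype unc-119(ed3) III and the transgene wgIs77, an insertion that targets unc-130. The labels describe the precipitated protein as UNC-130 fused to eGFP but give the antibody as unc-130, and they state neither the promoter of the transgene nor whether the animals' own unc-130 was intact. Both replicates carry the same mutation and transgene, and no group without the transgene and no control library was analysed here. Because whole animals were used, the cells in which a site was bound are not known, and no muscle or other cell type marker can be checked in lists of peaks. No read counts come with the lists, and the depth behind each signal value is therefore unknown.

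Body wall muscle of C. elegans is built of obliquely striated sarcomeres in which thin actin filaments slide past thick myosin filaments. The thick filaments are anchored at the M-line, where UNC-89, the worm homologue of obscurin, is located, and their A-bands carry twitchin, the giant protein encoded by unc-22, whose loss makes the muscle twitch. Both are very long chains of immunoglobulin and fibronectin type domains with a protein kinase region. UNC-87 and the proteins named cpn resemble vertebrate calponin, an actin-binding protein of smooth muscle, and UNC-87 is known to bind and stabilise thin filaments. UNC-130 belongs to the FoxD class of forkhead factors and is known from genetics for keeping the guidance signal gene unc-129 off in part of the body wall muscle, and so for cell and axon migration.

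Sequences are shown for unc-22, the twitchin gene, at the 4 candidate summits that ranked highest there in the pooled list. Each reaches 50 bases to either side of the summit in the WBcel235 genome (RefSeq copy, the same assembly as ce11) and is written on the minus strand, from which unc-22 is transcribed. Capitals mark the forkhead words TGTTTAC or TGTTTGC and the word CTGCGTCTC, in either orientation. The last word was picked after these sequences were read.
unc-22 first intron, chrIV:12010537-12010637: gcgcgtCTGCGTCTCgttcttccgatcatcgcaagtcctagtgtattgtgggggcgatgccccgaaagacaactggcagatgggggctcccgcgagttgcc
unc-22 upstream, chrIV:12012508-12012608: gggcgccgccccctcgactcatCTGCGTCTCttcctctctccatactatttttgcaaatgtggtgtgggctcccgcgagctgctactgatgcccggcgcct
unc-22 first intron, farther from the start, chrIV:12009414-12009514: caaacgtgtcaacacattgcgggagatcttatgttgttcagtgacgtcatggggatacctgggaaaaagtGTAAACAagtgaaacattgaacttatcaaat
unc-22 internal start, chrIV:11999668-11999768: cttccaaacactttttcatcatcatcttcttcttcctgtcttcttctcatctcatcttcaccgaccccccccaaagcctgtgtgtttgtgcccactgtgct
The first pair of sequences both hold CTGCGTCTC and have the same share of G and C, 61.4%. The third holds a forkhead word, read as GTAAACA on this strand, and has 39.6% G and C. The fourth holds none of the words.

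Of the 7 genes, 4 had at least 1 summit of the optimal list within 5000 bp, and the other 3, cpn-1, cpn-2 and unc-22, had none. The optimal list is the 2631 peaks of the pooled list that passed the authors' threshold on the irreproducible discovery rate (IDR), and it was identical to the 2631 highest of the 30000 pooled peaks by signal. Over all protein-coding genes, 30.0% had an optimal summit within 5000 bp. The genes with summits were cpn-3 with 3, unc-89 with 3, unc-87 with 2 and cpn-4 with 1, or 9 in all. Of all protein-coding genes, 1.57% had 3 or more. These genes differ greatly in length, from 0.76 kb for cpn-3 to 55.2 kb for unc-89, and a longer gene has a wider window in which a summit can fall. Per 100 kb of the joint windows there were 5.12 optimal summits, against 2.62 over the nuclear chromosomes and 3.05 on chromosome I, which holds 5 of the 7 genes. In the unthresholded lists the joint windows were close to the genome: 31.9 against 29.9 per 100 kb in the pooled list, 33.0 against 29.9 in replicate 1 and 30.2 against 25.2 in replicate 2. Nearly every gene has such candidates, namely 92.3% of protein-coding genes in the pooled list, 92.7% in replicate 1 and 91.8% in replicate 2, and all 7 members did in each of these lists.

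The 9 optimal summits ranked between 905 and 2337 of 2631, with a median rank of 1615, against 1316 over the whole list. Of the 9, 6 were nearer to a 5′ end of the member than to that of any other protein-coding gene. The other 3 were nearest to a 5′ end of a neighbour: of unc-73, 4936 bp upstream of unc-89, and of hrpf-1 and F08B6.1, 4679 and 897 bp downstream of unc-87. Of the 6, that of cpn-4 lay inside an intron of the neighbouring gene F49D11.10. For each member the highest summit in its window was also ranked within each replicate's list and given as a percentile of that list, 100 being the highest peak. By the mean of the replicates the order was unc-89 (96.7 ± 0.49, SD, n = 2 replicates), cpn-3 (95.3 ± 0.959), cpn-4 (93.4 ± 6.01), unc-87 (93.0 ± 6.34), unc-22 (88.7 ± 8.12), cpn-1 (77.7 ± 1.48) and cpn-2 (76.4 ± 7.2). Those of cpn-3, cpn-4, unc-87 and unc-22 each lay within the larger SD of its neighbour in the order, as did those of cpn-1 and cpn-2. The step from unc-22 to cpn-1 exceeded the SD of either gene, and the step from unc-89 to cpn-3 also did, though by little. For 3 of the genes, cpn-1, cpn-2 and unc-22, the replicates' highest summits lay at different places. The highest summits of unc-89 and unc-87 were those at unc-73 and hrpf-1. The optimal summit at the start of unc-89 itself had a mean percentile of 87.4 ± 8.75, below that of cpn-3. The order also takes the highest of unequal numbers of summits, such as 20 and 18 in the replicates for unc-89 and 3 and 2 for cpn-2. A percentile also depends on the length of its list, which was 30000 peaks for replicate 1 and 25234 for replicate 2.

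**Figure D1:**
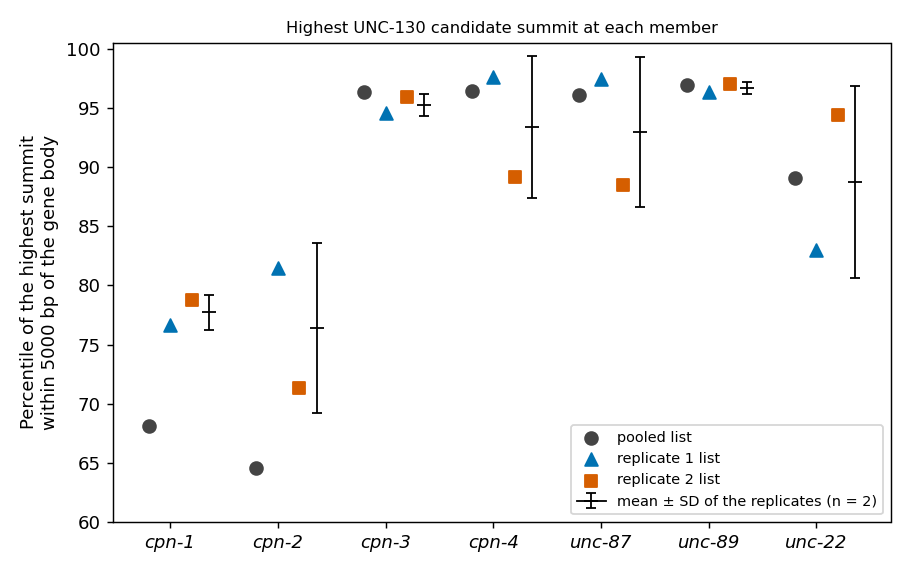
Percentile, within its own list, of the highest UNC-130 candidate summit within 5000 bp of each gene body (y axis, starting at 60) for the 7 genes (x axis), with circles for the pooled list, triangles for replicate 1, squares for replicate 2 and bars for the mean ± SD of the 2 replicates. For cpn-3 and unc-89 all points lie above 94, for cpn-4 and unc-87 replicate 2 lies below replicate 1, and for unc-22 replicate 2 lies above replicate 1.

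The small gene cpn-3, on the plus strand of chromosome I from 3987940 to 3988699, had 3 optimal summits that flanked the gene without lying in it. The highest peak (chromosome I, 3987157 to 3987406) had its summit 658 bp upstream of the 5′ end. Its signal was 40.5 in the pooled list, 17.4 in replicate 1 and 15.6 in replicate 2, and it ranked 1088, 1965 and 1462. The second peak (3988727 to 3988976) had its summit 153 bp past the 3′ end of the gene, with signals of 32.6, 19.7 and 18.5 and ranks of 1615, 1618 and 1019. The third (3986515 to 3986764) lay 1300 bp upstream, just beyond the 3′ end of aars-2, an alanyl-tRNA synthetase gene, and ranked 1721, 2595 and 1250. All 3 were classed as intergenic, and each was among the 2631 highest peaks of both replicates. Their mean percentiles in the replicates were 93.8 ± 0.535, 95.3 ± 0.959 and 93.2 ± 2.61 (SD, n = 2). The second stood above the first by more than the SD of either, while the third lay within its own SD of both. A replicate was counted as having a pooled summit where its own summit lay no farther away than the edge of a peak of full width. The pooled list held 3 further candidates here. One of them lay 91 bp upstream of the 5′ end and ranked 7446, and replicate 2 had a peak there (rank 4441) while replicate 1 had none. Another, 988 bp past the gene, ranked 7132 and was found in replicate 1 (rank 6566) only. The third, inside aars-2, ranked 27972.

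For cpn-4, on the minus strand of chromosome I from 10924240 to 10925750, the single optimal summit lay beside tRNA genes. Its peak (10927400 to 10927649) was 1775 bp upstream of the 5′ end of cpn-4, inside an intron of the neighbouring gene F49D11.10. Within 100 bp of the summit lie 2 tRNA genes and the non-coding RNA genes F49D11.12 and F49D11.13. The signal was 40.9 in the pooled list, 30.6 in replicate 1 and 10.4 in replicate 2, with ranks of 1067, 694 and 2730. Replicate 2 thus placed it just below its 2631 highest peaks. Nearer to the gene, a candidate 329 bp upstream of the 5′ end ranked 11796 in the pooled list, 20819 in replicate 1 and 14881 in replicate 2. A candidate 419 bp past the gene, 106 bp inside F49D11.7, ranked 11177, 10628 and 24456.

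The windows of cpn-1 and cpn-2 held only low candidates. The gene cpn-1 (chromosome I, 8636123 to 8637943, minus strand) had 3 in the pooled list, of which the highest ranked 9575 and lay 1541 bp upstream, in a coding exon of mfap-1. A candidate 62 bp upstream of its own 5′ end ranked 18736. Both were found in replicate 2 (ranks 5360 and 6627) and not in replicate 1, whose highest summit in this window ranked 6998. The nearest optimal summit to cpn-1 lay 21012 bp away. The gene cpn-2 (chromosome II, 337782 to 339250, plus strand) had 2 pooled candidates. The higher lay 3736 bp upstream and ranked 10635, with rank 22022 in replicate 1 and 7247 in replicate 2. Replicate 1 had its highest summit 300 bp past the gene (rank 5559), and neither replicate 2 nor the pooled list had a candidate there. The nearest optimal summit lay 8660 bp from cpn-2.

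At unc-87 (chromosome I, 6761221 to 6767797, minus strand) the optimal summits and the candidates nearest to the gene's own starts were ordered differently by the replicates. The higher optimal peak (6756417 to 6756666) lay 194 bp upstream of hrpf-1, which encodes an hnRNP F/H-like RNA-binding protein. It ranked 1167 in the pooled list, 754 in replicate 1 and 2896 in replicate 2. Of the 9 optimal summits near these genes, it was the only one with a forkhead word within 50 bp, and it held both TGTTTGC and TGTTTAC. The other (6760199 to 6760448) lay 92 bp upstream of F08B6.1, with ranks of 2337 in the pooled list and 1396 in replicate 1. Replicate 2 placed it at rank 17707 with a signal of 2.69, and its mean percentile of 62.6 ± 46.3 (SD, n = 2) had the widest spread of the 9. The candidate 1411 bp upstream of the longer transcript of unc-87 ranked 4126 in the pooled list, 8225 in replicate 1 and 2932 in replicate 2. A candidate in a coding exon, 961 bp inside the shorter transcript, ranked 5627, 15189 and 3950. Replicate 2 therefore placed the upstream candidate of unc-87 about level with the hrpf-1 peak and far above the F08B6.1 peak, while replicate 1 placed both neighbours' peaks above it.

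**Figure D2:**
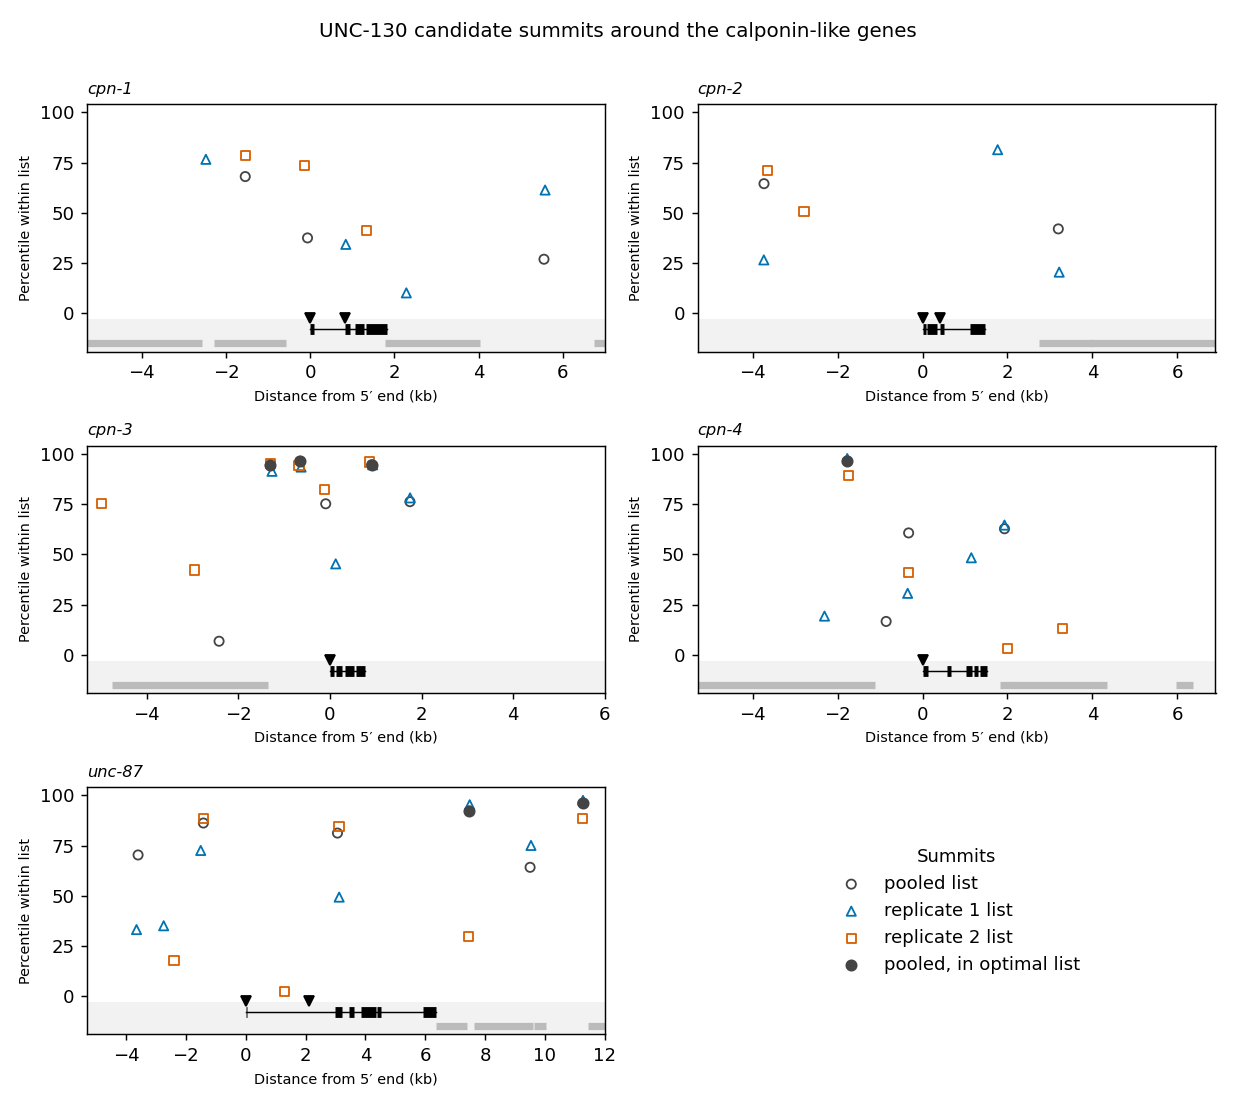
UNC-130 candidate summits around cpn-1, cpn-2, cpn-3, cpn-4 and unc-87, by distance from the gene's most upstream 5′ end in the direction of transcription (x axis, kb) and percentile of signal within each list (y axis). Open circles are the pooled list, filled circles those of its peaks in the optimal list, triangles replicate 1 and squares replicate 2, above a grey band with exons of the longest transcript (black), annotated 5′ ends (arrowheads) and neighbouring protein-coding genes (grey bars). The 3 filled points of cpn-3 flank the gene, that of cpn-4 and those of unc-87 lie at or within neighbouring genes, and cpn-1 and cpn-2 have none.

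The obscurin gene unc-89 (chromosome I, 4035702 to 4090885, plus strand) has 16 annotated transcripts with 5 distinct 5′ ends, and its 3 optimal summits lay upstream in unc-73, at its most upstream start and in an intron. The peak at its most upstream start (4035506 to 4035755) had its summit 71 bp upstream of the 5′ end. The signal there was 27.9 in the pooled list, 8.57 in replicate 1 and 14.7 in replicate 2, with ranks of 2060, 5630 and 1614, so that it stood among the 2631 highest in replicate 2 and below them in replicate 1. The summits of the replicates there lay 35 bp and 122 bp to opposite sides of the pooled summit. The intron peak (4050564 to 4050813) lay in intron 15 of the 47 introns of the longest transcript, which is 1646 bp long, and 3553 bp downstream of the start shared by 5 transcripts. Replicate 2 ranked it 828 and replicate 1 ranked it 10783, and the pooled rank was 2314. Its mean percentile was 80.4 ± 23.1 (SD, n = 2). Both replicates placed the third summit high, which was the one 4936 bp upstream of the gene (peak 4030641 to 4030890). It ranked 905, 1085 and 738 and had a mean percentile of 96.7 ± 0.49. This summit lies in an intron of unc-73, which encodes a Trio-like guanine nucleotide exchange factor used in axon guidance, 861 bp downstream of the 5′ end of a transcript of that gene.

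Internal starts of unc-89 carried candidates below the IDR threshold. A summit 427 bp upstream of the start shared by 5 transcripts (4046709) ranked 3594 in the pooled list, 8398 in replicate 1 and 1680 in replicate 2. A summit 166 bp upstream of the most downstream start (4081341), from which a short transcript with the kinase end of the gene begins, ranked 3077, 6348 and 3572. Replicate 2 again gave the better rank at both places. A candidate between unc-73 and unc-89, 2943 bp upstream of unc-89, ranked 5112, 5180 and 1738. In all, the pooled list had 18 candidates in the window of unc-89, of which 10 were found in both replicates, and in 8 of these 10 the percentile was higher in replicate 2. Of all pooled peaks found in both replicates, 46.1% had the higher percentile in replicate 2.

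The twitchin gene unc-22 (chromosome IV, 11972697 to 12011007, minus strand) had no optimal summit, although it is longer than all but 23 protein-coding genes, and the nearest lay 10858 bp from it. Its window held 17 pooled candidates. The highest lay in the first intron, 293 bp downstream of the 5′ end shared by 5 of its 9 transcripts, and is the first of the sequences above. Its signal was 19.7 in the pooled list, where the lowest optimal signal was 23.5, and its pooled rank was 3278. Replicate 2 ranked it 1396 (signal 16.0), within its 2631 highest, and replicate 1 ranked it 11093 (signal 6.11). The second sequence, 1551 bp upstream of the gene, was the highest candidate in replicate 1 (rank 5105) and had ranks of 3877 in the pooled list and 3816 in replicate 2. Its mean percentile was 83.9 ± 1.34 (SD, n = 2), against 78.8 ± 22.2 for the first, a difference within the spread. Annotated non-coding RNA genes lie within 100 bp of both summits, and the second summit lies inside one. Such genes also lie within 100 bp of the summit of the fourth sequence and of the candidates at 11999099, 12012775 and 12006328. The share of all pooled peaks with such a gene so near is not given here. The third sequence, 1416 bp downstream of the shared 5′ end, ranked 4136 in the pooled list and 2025 in replicate 2, and replicate 1 had no summit there. The fourth lay 48 bp upstream of the start of the transcript ZK617.1c.1, inside intron 10 of the longest transcript, and ranked 5067, 8915 and 3083. In the same intron, 571 bp downstream of that start, a candidate (11999099) ranked 5207 in the pooled list and 5785 in replicate 1 and was not found in replicate 2. Among the candidates in coding exons, the highest (11980215) ranked 6698 in the pooled list and 6866 in replicate 2 and was not found in replicate 1.

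**Figure D3:**
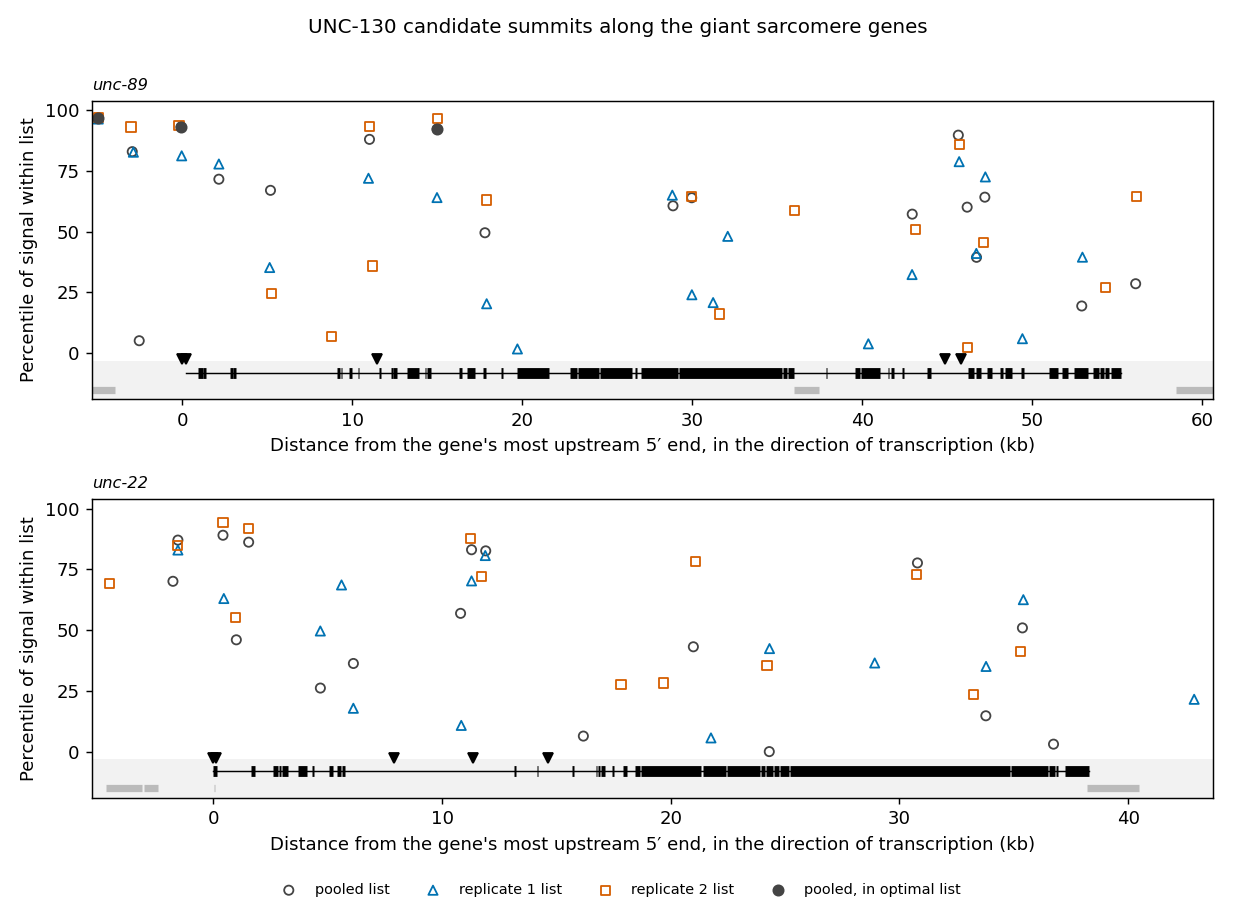
UNC-130 candidate summits along unc-89 and unc-22, by distance from the gene's most upstream 5′ end in the direction of transcription (x axis, kb) and percentile of signal within each list (y axis), with the symbols and gene drawings of the maps of the calponin-like genes. High points of replicate 2 (squares) stand near the 5′ ends (arrowheads) and in the first part of each gene, with triangles of replicate 1 below most of them. Only unc-89 has filled points, which mark the optimal list.

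The replicates found the same 9 optimal summits, with offsets between 0 and 122 bp, but ordered them differently. All 9 were found in both replicates, as were 94.2% of the whole optimal list, which was itself derived from the replicates' lists. Replicate 2 gave the better rank at 6 of the 9, namely all those of cpn-3 and unc-89, and replicate 1 at the other 3, those of cpn-4 and unc-87. Over the whole optimal list, replicate 2 gave the better rank in 45.2% of the peaks found in both. Of the 9, 4 lay among the 2631 highest peaks of both replicates, namely the 3 of cpn-3 and that of unc-73 upstream of unc-89. The share of the whole optimal list that did so is not given here, so this count cannot be called low or high. Taken alone, the 2631 highest peaks of replicate 2 held 10 summits in these windows, 5 at unc-89, 3 at cpn-3 and 2 at unc-22, and none at cpn-4 or unc-87. Of all protein-coding genes, 27.9% had a summit of that list within 5000 bp. The 2631 highest of replicate 1 held 7, of which 3 were at cpn-3, 2 at unc-87 and 1 each at cpn-4 and unc-89, against 30.5% of all protein-coding genes. At this cut unc-22 had summits in replicate 2 alone, cpn-4 and unc-87 in replicate 1 alone, and cpn-3 and unc-89 in both. The split depends on the cut, since the highest summits of cpn-4 and unc-87 in replicate 2 ranked 2730 and 2896, just below it. The highest of unc-22 in replicate 1 ranked 5105. Of the 56 pooled candidates in these windows, 26 (46.4%) were found in both replicates, against 24.3% of all pooled peaks. With 2 replicates and an unknown depth of each, which of them is the more precise is not known.

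**Figure D4:**
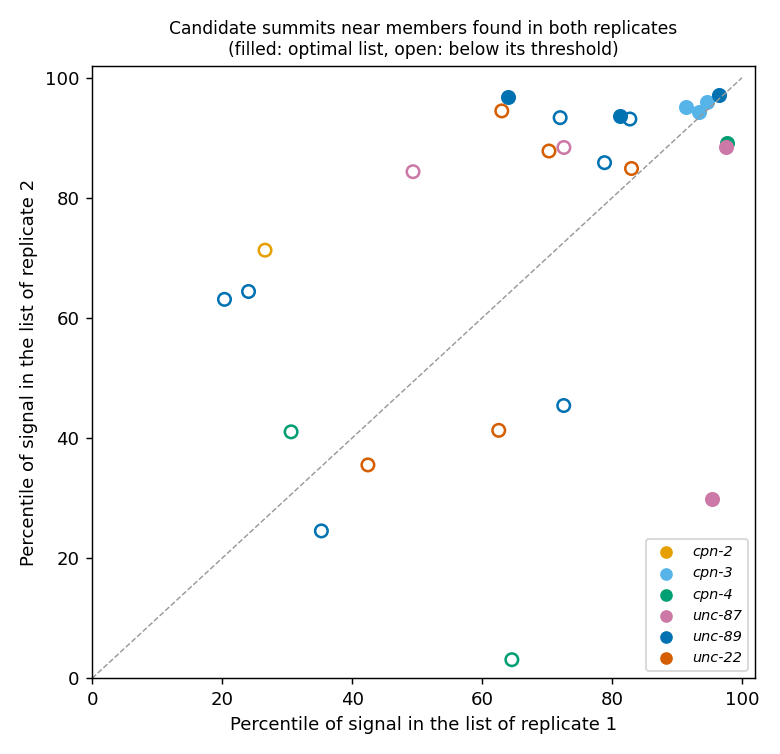
Percentile of signal in the list of replicate 1 (x axis) and of replicate 2 (y axis) for the 26 pooled candidate summits near the 7 genes found in both replicates, coloured by gene, with filled points for the optimal list and a dashed line of equal percentiles. The 3 points of cpn-3 lie together at the upper right, 8 of the 10 points of unc-89 lie above the line, and the F08B6.1 peak near unc-87 lies far below it at 95.4 and 29.8.

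By position, 3 of the 9 optimal summits were promoter summits, no more than 500 bp from where some protein-coding transcript starts, 3 in introns and 3 in intergenic sequence. Of all optimal summits, 56.3% were promoter summits, 15.1% lay in introns and 23.8% in intergenic sequence. Of the 3 promoter summits, 1 belonged to a member, at the start of unc-89. Among the 56 pooled candidates, 16 (28.6%) lay in coding exons, against 20.7% of the whole pooled list, whereas none of the 9 optimal ones did, against 0.684% of the optimal list. The coding exon candidates were mostly in unc-22 (7) and unc-89 (5).

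Both strands of the 50 bp to either side of every summit were searched for short sequence words. A forkhead word, TGTTTGC or TGTTTAC, was found at 1 of the 9 optimal summits, that of hrpf-1, and at 10.6% of all optimal summits. It was found at 3 of the 56 pooled candidates, against 4.21% of the pooled list, and the other 2 were both in introns of unc-22. The E-box CAGCTG, a word read by muscle bHLH factors such as MyoD and its worm relative HLH-1, was found at the cpn-3 summit 1300 bp upstream, the only 1 of the 9, and at 5.13% of all optimal summits. The looser CANNTG, which takes in CAGCTG, was found at 5 of the 9 and at 49.4% of all. The word CTGCGTCTC was at none of the 9 and at 6.92% of all optimal summits, and among the pooled candidates it was at the 2 of unc-22 shown above and at 1.86% of the pooled list. A word in the window is a match of letters and does not show what was bound there.

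A list of 31 other genes of thick and thin filaments, M-line partners and giant immunoglobulin proteins was counted in the same way. At least 1 optimal summit lay within 5000 bp of 20 of them, beside the 30.0% of all protein-coding genes. The list was chosen with earlier results of these data known, so the count is a description only. Most of the listed genes are also longer than the median protein-coding gene (2027 bp), up to 81.7 kb for ttn-1. Their windows are wider for that reason, and no correction for length was made. They were ttn-1, ketn-1, dim-1, unc-15, myo-3, unc-45, lim-8, lim-9, scpl-1, mel-26, cul-3, mak-1, clik-1, clik-3, fln-1, unc-94, tmd-2, unc-60, cap-1 and cap-2. In 16 of the 20 the highest such summit was nearest to a 5′ end of the gene itself. The other giant genes of the worm sarcomere both had one: ttn-1, the titin-like gene, 1635 bp upstream (rank 1558 in the optimal list, 13575 in replicate 1 and 552 in replicate 2), and ketn-1, the kettin gene, inside the gene and 3123 bp upstream of a start within it (ranks 1926, 3307 and 1400). Replicate 2 gave the better rank at both, as at unc-89. Of the genes with calponin-like repeats, clik-1 had a summit 51 bp upstream of its start (ranks 1210, 1588 and 1982) and clik-3 had one 1522 bp upstream (ranks 2228, 3566 and 1460), whereas clik-2 had none. The highest ranks belonged to cap-2, cap-1 and unc-94, which encode capping proteins and a tropomodulin at the ends of actin filaments (288, 385 and 437), but the cap-2 summit was nearest to the start of cyn-4. The other 11 had no optimal summit in the window. They were unc-54, which encodes the major myosin heavy chain, lev-11, the tropomyosin gene, zig-12, unc-96, unc-98, csn-5, rho-1, clik-2, unc-78, pfn-3 and alp-1.

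The genes most like the members with 3 optimal summits were sought by the counts of summits within 5000 bp in the 4 lists. For cpn-3, with counts of 3, 6, 5 and 6 in the optimal, pooled, replicate 1 and replicate 2 lists, C04A2.15 and yju-2 had the same counts and ttr-6 differed by 1 optimal summit. For unc-89, with counts of 3, 18, 20 and 18, the nearest was dkf-2 with 3, 19, 20 and 19, at a Euclidean distance of 1.41, followed by ajm-1 and zfp-1 at 3.0. Of these, dkf-2 is 40.8 kb long, ajm-1 30.7 kb and zfp-1 14.8 kb, against 55.2 kb for unc-89.

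The summits closest to the limits of window and threshold were as follows. The unc-73 summit lay 4936 bp from unc-89 and the hrpf-1 summit 4679 bp from unc-87, both just inside the limit of 5000 bp, and the next optimal summits beyond it were 8660 bp from cpn-2 and 10858 bp from unc-22. On the signal scale, the last member peak inside the optimal list was that of F08B6.1 near unc-87 (25.8, rank 2337), and the first outside were those at the kinase start of unc-89 (20.7, rank 3077) and in the first intron of unc-22 (19.7, rank 3278).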

How the data were processed

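Peak lists in narrowPeak layout on the ce11 build were used: the lists of replicates 1 and 2, a pooled list, and the optimal list, which per the deposited notes was derived from these. The notes name a further, undescribed file behind each replicate's list and none behind the pooled list, so these may have been called differently. The signal value of each peak is a score that the authors' peak caller assigned. The summit offset, the other deposited column used, is in bp. The aligner, peak caller and cut-off on IDR, not given in the sources used here, could change every rank. Fragments of 150 to 350 bp were sequenced, per the labels. The ce10 lists were not used.

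Summits were counted from 1 and ranked by signal within their list, ties sharing the lower number. Genes came from Ensembl release 115 (WBcel235, the assembly of ce11), and no peak extended past a chromosome end. A promoter summit lay within 500 bp of the 5′ end of any protein-coding transcript; coding exon, untranslated region, intron, non-coding RNA gene and intergenic followed in this order. A pooled summit counted as found in a replicate when the replicate's summit lay within the distance from the summit to the edge of a full-width peak. Python 3.11.15 and numpy 2.4.6 were used, and the counting was tested on simulated summits. No test was made, since the choice used the summits and there is 1 group. The genes named were all members with their optimal summits and highest candidates, listed genes with an optimal summit, and the 3 genes nearest in counts. The members and lists were chosen with earlier results of these data known. Labels do not say whether replicates came from separate cultures.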

Additional observations from a re-analysis of the deposited data

How the results depend on the processing

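The count of 4 genes with an optimal summit held within 1.5 times (3 to 4 genes) with narrower windows (2000 and 1000 bp), in the upper part of the optimal list, with whole peaks in place of summits, and with summits given to the nearest 5′ end only. Where the count was 3, a different gene was lost: cpn-4 at 1000 bp and unc-87 with the nearest 5′ end only. Over all protein-coding genes the shares were 19.5% at 2000 bp, 15.2% at 1000 bp and 18.1% for the upper part at 5000 bp. No such share is given for whole peaks or for the nearest 5′ end, so those counts cannot be called low or high. The count of genes fell to 1, unc-89, when the summit had to lie inside the gene body, beside 3.03% of all protein-coding genes. The 9 summits became 5 with a window of 1000 bp, 1 inside gene bodies and 4 in the upper part of the list. Without replicate 1 or replicate 2, the number of genes was 3 and 4, and that of summits 10 and 7. The genes were not the same: cpn-3, unc-89 and unc-22 without replicate 1, and cpn-3, cpn-4, unc-87 and unc-89 without replicate 2. Of all protein-coding genes, 27.9% and 30.5% had such a summit. Summits found in both replicates numbered 9, and 4 when they had to be among the 2631 highest of each, with no share of the whole optimal list beside it. Optimal summits with a forkhead word became 2 within 100 bp. The related genes numbered 20, with 18 at 2000 bp and 19 to 23 from single replicates. No paired analysis was possible because there is 1 group. Depth is unknown, and with 2 replicates and no control library no background level could be set.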
